A study of Bos taurus with 13 samples.

Results

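The genes described here are those of the heat shock protein and DNAJ families counted in whole blood of dairy cows with high or low cortisol in milk. All gene names in the count tables that begin with HSPA, HSPB, HSPD, HSPE, HSPH or DNAJ were taken, and those with a total of at least 100 counts over all cows were kept. Of 16095 named genes, 63 names matched and 54 were kept. They comprised 23 DNAJC, 8 DNAJB and 4 DNAJA genes, 7 genes of the HSP70 family, 2 of the HSP110 family, 2 chaperonin genes, 4 small heat shock protein genes and 4 genes that only share the HSPB prefix. The cows were lactating Italian Red Pied animals, called Italian Simmental in the methods of the study, from a single commercial farm and were clinically healthy. They received no treatment, and the 7 cows of the high group and the 6 cows of the low group were chosen from the upper and lower ends of a ranking by milk cortisol. The study selected more cows at each end than the 13 whose counts are used here. Age, and the cortisol value of each cow, were not used here. Each library was 1 cow, the tissue was labelled blood cells, and the blood was taken into PAXgene tubes, which stabilise RNA, with globin transcripts left in.

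Molecular chaperones bind unfolded stretches of other proteins and help them to fold, to cross membranes or to be degraded. HSP70 proteins grip and release their clients in a cycle driven by ATP. DNAJ proteins, also called HSP40 or J-domain proteins, bring clients to HSP70 and start ATP hydrolysis, whereas HSP110 proteins exchange the nucleotide and let the client go. Small heat shock proteins hold damaged proteins without using ATP, and the chaperonin of HSPD1 and HSPE1 folds proteins inside the mitochondrion. Some of these genes are expressed in all cells at all times and others are switched on by heat shock factors or by stress in the endoplasmic reticulum. In blood they are studied as markers of heat load in cattle, and glucocorticoid receptors are held in a form ready to bind cortisol by the HSP70 and HSP90 machinery. The question that the groups address is whether these transcripts differ between cows at the 2 ends of the range of milk cortisol.

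Counts on named genes were between 11045599 and 28124575 per cow. A component that holds the main axis of variation was computed from the 10979 other tested genes and took 29.0% of their variance, with replicate 4 of the high group at 62.5 and the other 12 cows between -31.4 and 19.2. That library stands apart, so results that rest on it are given with and without it. Lists of blood cell markers, and of interferon response and immediate early genes, were read as well. An unadjusted *p* below 0.05 (edgeR, high against low) was found for 2.09% of all tested genes and for 3 of 5 tested erythroid genes. The erythroid list had summed levels of 378 to 7843 CPM (the count of a gene relative to the scaled total of its library) in the high and 137 to 572 CPM in the low group. The red cell markers *AHSP* and *SLC4A1* were below 1 CPM on average. Such a *p* was also found for 2 of 5 neutrophil genes (4190 to 8506 CPM in the high group and 6741 to 9433 CPM in the low group), for 3 of 7 interferon response genes (731 to 3229 and 856 to 5794 CPM) and for 1 of 4 platelet genes (93.4 to 211 and 100 to 234 CPM). In the monocyte, T cell, B cell, cytotoxic, eosinophil and immediate early lists the number was 0. The log2 fold change, high over low, was above 0 in all 5 tested erythroid genes. It was below 0 in 4 of 5 neutrophil, all 7 interferon response and all 4 platelet genes. In whole blood fewer cells of a type and less RNA per cell cannot be told apart.

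All 54 genes had at least 1 count in every cow and all were tested, and 42 had a mean of 100 or more counts per cow. None shared an exon with another gene of the annotation. They lay on 22 chromosomes. *HSPB9*, with 123 counts in all, and *DNAJC12*, with 227, were the lowest genes kept. *HSPA4L* with 64 counts and *DNAJB7* with 39 were the highest left out. Of the other 7 names left out, *HSPB7* had 22 counts, of which 20 were in replicate 11 of the low group, and *HSPB3* and *HSPA12A* had 2 counts each. *DNAJB8*, *DNAJC22*, *DNAJC5B* and *DNAJC5G* had 0 counts in every cow, which allows a level of up to 0.0126 CPM over the pooled libraries, counting error only. The stress-inducible *HSPA1A* and *HSPA1B* and the endoplasmic reticulum chaperone *HSPA5* were not analysed here, since the named entries did not hold them. Several of the genes, among them *HSPA8*, *HSPD1*, *HSPE1* and *HSPA1L*, may have similar sequences elsewhere in the genome, which was not examined. How reads that match more than 1 place were counted is not given in the sources used here, so their levels are uncertain to that extent.

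Levels are compared between genes as CPM per kilobase of exon, as the mean ± SD of 13 cows. The constitutive cytosolic HSP70, *HSPA8*, was the most abundant of the 54 genes, and together with the small heat shock protein gene *HSPB1* it stood well above the rest. *HSPA8* (chr15:34216278-34220705 on UMD3.1) had 940 ± 101 CPM per kb, rank 82 of all 16095 named genes. *HSPB1* (chr25:34858435-34861074), which steadies actin filaments and holds damaged proteins, had 714 ± 170 CPM per kb and rank 108. *HSPE1*, the lid of the mitochondrial chaperonin, had 281 ± 57.6 CPM per kb (rank 309). Each of these 3 exceeded every other member in its mean level. The lowest mean levels were 0.373 ± 0.160 CPM per kb for *DNAJC6*, the clathrin uncoating factor auxilin known from neurons, and 0.591 ± 0.393 CPM per kb for *HSPA6*, an HSP70 gene that other tissues make mainly upon heat.

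**Figure D1:**
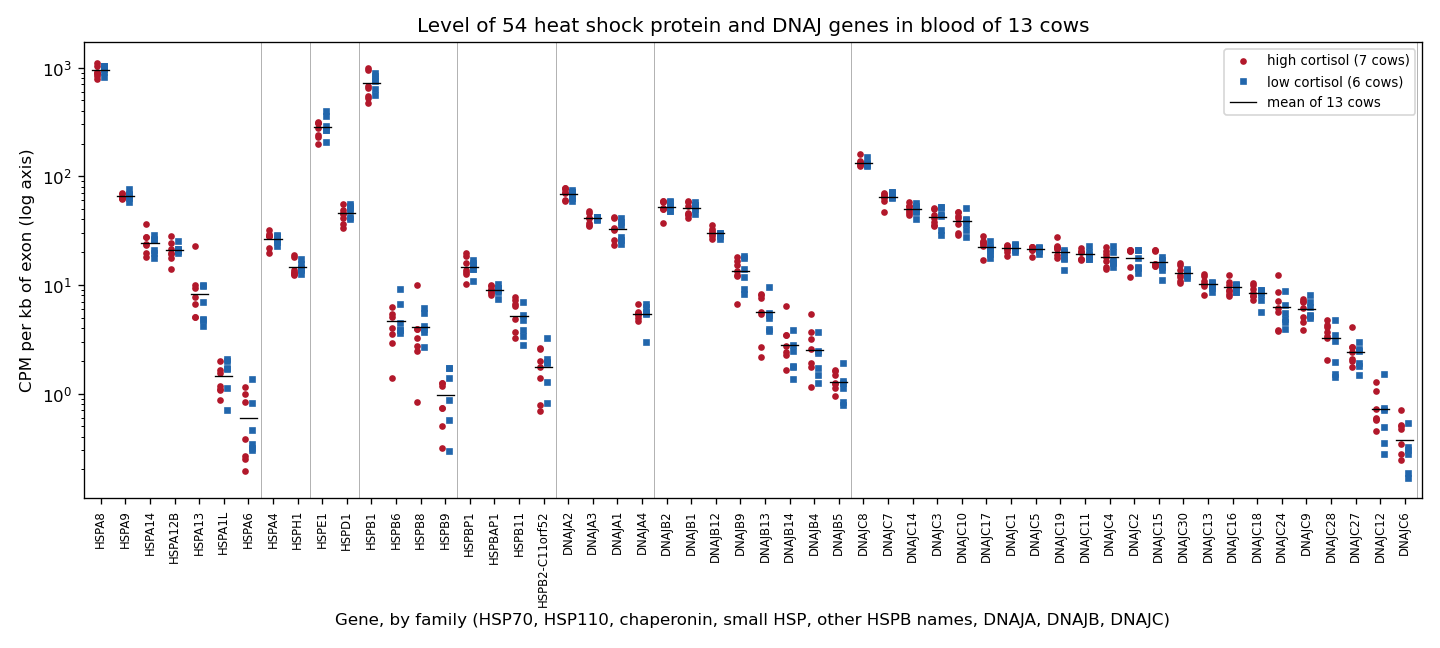
Level of each of the 54 genes in CPM per kb of exon (log axis), with 1 red point for each of 7 high cortisol cows, 1 blue square for each of 6 low cortisol cows, and a line at the mean of 13 cows; vertical lines separate the families. *HSPA8*, *HSPB1* and *HSPE1* lie at the top with means of 940, 714 and 281, *DNAJC6* is lowest at 0.373, and points of the groups overlap in every gene.

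Summed over families, the transcripts of these genes took 5107 ± 345 CPM (SD, n = 13), and the sum ran from 4536 CPM in replicate 6 to 5548 CPM in replicate 1, both of the high group. The HSP70 family held between 44.1% and 49.6% of this sum in every cow, with 2396 ± 227 CPM, of which *HSPA8* gave most. The DNAJC family summed to 1014 ± 39.1 CPM, the small heat shock proteins to 625.2 ± 148 CPM, DNAJA to 292 ± 20.7 CPM, DNAJB to 289 ± 14.0 CPM, the chaperonin to 263 ± 39.9 CPM and HSP110 to 181 ± 22.5 CPM. The small heat shock sum was the least even between cows, from 418 to 873 CPM, and followed *HSPB1*. DNAJA and DNAJB differed by less than their spread.

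Within the HSP70 family, the genes after *HSPA8* were *HSPA9*, the mitochondrial HSP70 (mortalin), with 65.7 ± 4.72 CPM per kb, and *HSPA14*, a ribosome-bound member, with 24.3 ± 5.23. *HSPA12B*, a distant member known from endothelium, followed at 21.1 ± 3.54 and did not differ from *HSPA14* beyond the spread. *HSPA13*, a short HSP70 of the microsomal compartment, had 8.24 ± 4.89 CPM per kb, and *HSPA1L*, known from testis, had 1.44 ± 0.457. In the HSP110 family *HSPA4* had 26.5 ± 3.43 and *HSPH1*, its heat-inducible relative, 14.5 ± 2.22. *HSPD1*, the chamber of the mitochondrial chaperonin, had 46.0 ± 7.06 CPM per kb.

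Among the J-domain genes, the DNAJA group was led by the cytosolic *DNAJA2* (69.0 ± 7.10 CPM per kb), the mitochondrial *DNAJA3* (40.9 ± 3.67) and the cytosolic *DNAJA1* (32.5 ± 6.83). In the DNAJB group, *DNAJB2*, which carries clients to the proteasome, and the heat-inducible *DNAJB1* had similar levels of 52.6 ± 6.29 and 50.8 ± 5.93 CPM per kb, and *DNAJB12*, which serves the degradation of membrane proteins at the endoplasmic reticulum, had 29.7 ± 2.53. The close relatives of *DNAJB1* were far lower, with 2.51 ± 1.22 for *DNAJB4* and 1.27 ± 0.333 for *DNAJB5*. In the DNAJC group *DNAJC8*, a protein of the splicing machinery, had 134 ± 10.7 CPM per kb, *DNAJC7*, which hands clients between HSP70 and HSP90, had 65.1 ± 6.51, and *DNAJC14* had 49.8 ± 5.02. Of the small heat shock genes other than *HSPB1*, *HSPB6* had 4.63 ± 1.94, *HSPB8* 4.09 ± 2.19 and *HSPB9* 0.963 ± 0.491 CPM per kb, so the first and second of these did not differ beyond the spread. The genes that only share the prefix were *HSPBP1*, a nucleotide exchange factor of HSP70, at 14.7 ± 2.76, *HSPBAP1*, named for its binding to HSPB1, at 9.00 ± 0.803, *HSPB11*, a subunit of the intraflagellar transport machinery, at 5.16 ± 1.69, and the readthrough *HSPB2-C11orf52* at 1.77 ± 0.767.

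The spread between cows, as the SD of log2 CPM over 13 cows, was 0.276 in the median of the 54 genes and 0.305 in the median of all tested genes. The steadiest were *DNAJC5*, the cysteine string protein that chaperones secretory vesicles, with an SD of 0.093, *HSPA9* with 0.102 and *DNAJC1*, an endoplasmic reticulum J-protein, with 0.108. Among genes with a mean of 100 or more counts, *HSPB8*, which delivers clients to autophagy together with BAG3, was the most variable with an SD of 0.809. Its level ran from 1.597 CPM in replicate 1 to 18.8 CPM in replicate 5, both of the high group, while the low group ran from 5.14 to 11.7 CPM. *HSPA13* had an SD of 0.665 and *HSPB6*, a small heat shock protein of muscle, 0.645. *HSPA13* was 47.6 CPM in replicate 4 of the high group and between 8.77 and 21.0 CPM in the other 12 cows. *HSPA6* had an SD of 0.845 at a mean of only 21.8 counts per cow, where counting error is large.

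Cows with high and low cortisol were set against each other by the quasi-likelihood test of edgeR over all 11033 tested genes, and a positive log2 fold change stands for a higher level in the high group. None of the heat shock protein and DNAJ genes was called over- or under-expressed. By this test 0 of 54 passed an adjusted *p* of 0.05 (0% of all tested genes did, and the smallest adjusted *p* was 0.998), and 0 of 54 had an unadjusted *p* below 0.05, against 2.09% of all tested genes. In 0 of the 54 genes were the 2 groups without overlap, against 0.0453% of all tested genes. The log2 fold change was above 0 in 33 genes and below 0 in 21, where 53.3% of all tested genes were above 0. Its median was 0.02 over the 54 genes and 0.01 over all tested genes, and the median of its size without sign was 0.08 and 0.11. The same count of 0 of 54 at an unadjusted *p* below 0.05 was found with DESeq2, with limma-voom, with other scaling factors, with all genes that had a count, and with the haemoglobin share or the neutrophil and T cell scores as covariates, and 0 of the 50 genes with 10 or more counts in each of the 13 cows had one.

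The standard error of the log2 fold change was 0.15 in the median gene and below 0.2 in 36 genes. In 35 of the 54 genes the 95% interval lay within 0.5 on either side of 0, which is a change of at most 1.41-fold. On simulated counts with the depths of these libraries, 4.5% of 200 genes with a set change of 0.5 (log2) were found. With a change of 1.0 it was 72.5% of 200, and with a change of 2.0 it was 94.5% of 200. These genes were drawn independently of each other, without the shared main axis of the libraries, and 200 were changed at once. For a single changed gene in these cows the shares can therefore be too high. A change of 0.5 or less was mostly not detectable by the adjusted *p*, and the intervals carry what is known of it.

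**Figure D2:**
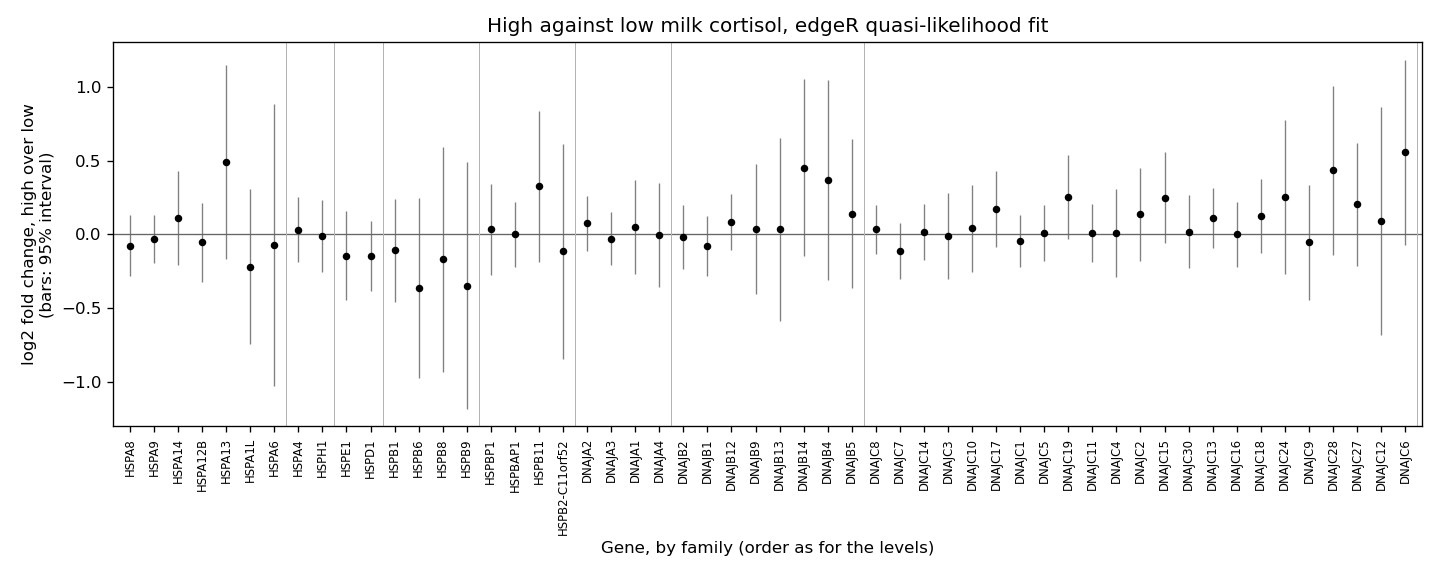
Log2 fold change of each gene, high over low cortisol, with bars for the 95% interval from the edgeR fit (7 and 6 cows), in families separated by vertical lines. Points run from -0.36 for *HSPB6* to 0.56 for *DNAJC6*, the bars are longest for the low-level genes, and every bar crosses 0.

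For *HSPA8*, the central HSP70 of the cytosol, the high group had 1772, 2014 and 2479 CPM (lowest, median and highest cow) and the low group 1834, 2263 and 2340 CPM. The groups overlapped over nearly their whole range. The log2 fold change was -0.08 (SE 0.11, edgeR, 95% interval -0.28 to 0.13), and an exact permutation test of mean log2 CPM gave *p* = 0.371. The mitochondrial *HSPA9* had 143, 146 and 163 CPM in the high group and 132, 155 and 176 CPM in the low group, with a log2 fold change of -0.03 (SE 0.08). *HSPA14* had 30.6, 40.6 and 61.1 CPM against 30.1, 39.7 and 48.7 CPM, with 0.11 (SE 0.16), and 0.0053 with the haemoglobin share as a covariate. The range of *HSPA9* in the low group held all 7 high cows, and the ranges of *HSPA14* overlapped, with replicate 4 of the high group highest.

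*HSPA13* had 10.6, 16.2 and 47.6 CPM in the high group and 8.77, 12.3 and 21.0 CPM in the low group. The gene had a log2 fold change of 0.49 (SE 0.34), which was the largest of the HSP70 family, and it was 0.11 without replicate 4 of the high group, the library that stands apart, and 0.24 with the haemoglobin share as a covariate. *HSPA6* had 0.377, 0.738 and 2.22 CPM against 0.587, 0.776 and 2.64 CPM. The limit that a count of 0 allows is between 0.107 and 0.272 CPM per cow. The log2 fold change of *HSPA6* was -0.07 (SE 0.49), and 0.58 with the haemoglobin share as a covariate.

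The HSP110 genes differed between the groups by less than their spread. *HSPH1* had 44.1, 47.2 and 67.7 CPM in the high group and 45.2, 51.0 and 62.1 CPM in the low group. Log2 fold changes were -0.01 (SE 0.12) for *HSPH1* and 0.03 (SE 0.11) for *HSPA4*, whose groups ran from 94.8 to 153 CPM and from 110 to 140 CPM. Upper-quartile scaling and the haemoglobin covariate each turned the sign of *HSPH1*, at values of 0.0047 and 0.12.

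The 2 genes of the mitochondrial chaperonin both had a negative log2 fold change. *HSPD1* had 94.4, 127 and 156 CPM in the high group and 113, 140 and 157 CPM in the low group, and only 1 of 7 high cows was above the median of the low group. *HSPE1* had 94.6, 134 and 150 CPM against 98.3, 132 and 189 CPM. The log2 fold changes were -0.15 (SE 0.12, edgeR, unadjusted *p* = 0.244) and -0.14 (SE 0.15, unadjusted *p* = 0.363), within the spread between cows.

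All 4 small heat shock genes had a negative log2 fold change, none of them beyond the spread, where 53.3% of all tested genes were above 0. *HSPB1* had 406, 557 and 856 CPM in the high group and 473, 658 and 757 CPM in the low group, so the high group held both the lowest and the highest cow. Its log2 fold change was -0.11 (SE 0.18), and it was 0.13 with the haemoglobin share as a covariate. The log2 fold change was -0.36 (SE 0.31) for *HSPB6*, -0.35 (SE 0.43) for *HSPB9* and -0.17 (SE 0.39) for *HSPB8*. Without replicate 1 of the high group, its lowest cow, the value of *HSPB8* was 0.0091, and without replicate 5, its highest cow, it was -0.62. It was -0.76 with the haemoglobin share as a covariate and -0.44 with limma-voom. *HSPB6* turned to 0.10 and *HSPB9* went to -0.60 with the neutrophil and T cell scores as covariates.

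Among the cytosolic J-domain genes, *DNAJB1* had 92.1, 103 and 132 CPM in the high group and 101, 118 and 130 CPM in the low group. *DNAJA1* had 47.3, 65.5 and 84.9 CPM against 47.7, 63.8 and 82.7 CPM, and *DNAJA2* had 103, 125 and 136 CPM against 101, 116 and 130 CPM. The groups overlapped in all 3, with log2 fold changes of -0.08 (SE 0.10), 0.05 (SE 0.16) and 0.07 (SE 0.10). *DNAJB4* had 1.46, 3.29 and 6.94 CPM against 1.61, 2.62 and 4.73 CPM, with a log2 fold change of 0.37 (SE 0.34) that was 0.13 without high replicate 4 and -0.02 with the haemoglobin share as a covariate. *DNAJB14*, a partner of *DNAJB12* at the endoplasmic reticulum, had a log2 fold change of 0.45 (SE 0.31), and 0.19 without that cow.

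The DNAJC family had 19 log2 fold changes above 0 and 4 below, where 53.3% of all tested genes were above 0. These genes share the same cows and are not independent. Without replicate 4 of the high group, *DNAJC24* went from 0.25 to 0.04 and *DNAJC27* from 0.20 to 0.05, while *DNAJC17* went from 0.17 to 0.24. The median log2 fold change of the family was 0.04, close to the median of 0.01 over all tested genes. *DNAJC6* had 1.12, 2.16 and 3.21 CPM in the high group and 0.763, 1.31 and 2.42 CPM in the low group. The gene had a log2 fold change of 0.56 (SE 0.32, edgeR, unadjusted *p* = 0.101), the largest of the 54 genes, with their smallest *p*. *DNAJC19* and *DNAJC15*, both parts of the motor that pulls proteins into mitochondria, had log2 fold changes of 0.25 (SE 0.15) and 0.25 (SE 0.16). *DNAJC19* had 9.39, 11.8 and 14.7 CPM in the high group and 7.28, 10.1 and 11.2 CPM in the low group (exact permutation *p* = 0.0548, the smallest of the 54). *DNAJC15* was above the median of the low group in 7 of 7 high cows, with 9.30 to 13.2 CPM against 7.05 to 11.3 CPM (exact permutation *p* = 0.0839), and its *r* with the interferon response score was -0.76 over 13 cows. At these levels, the mean of both genes was below 200 counts per cow.

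With 1 cow left out in turn, between 0 and 2 of the 54 genes had an unadjusted *p* below 0.05. Without replicate 9 of the low group these were *DNAJC6* (log2 fold change 0.79, edgeR, unadjusted *p* = 0.0254) and *DNAJC28* (0.67, unadjusted *p* = 0.031). When replicate 4 of the high group was left out it was *DNAJC17*, a J-protein of the spliceosome, with 0.24 (unadjusted *p* = 0.0456). All of these had adjusted *p* values of 0.914 or more.

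A further 3 sets of these genes were also read by the compartment or signal they are known for. Of 9 genes of the heat-inducible set, 2 had a positive and 7 a negative log2 fold change, with a median of -0.08 and 0 below an unadjusted *p* of 0.05. Of 4 genes of the endoplasmic reticulum stress set (*HSPA13*, *DNAJB9*, *DNAJC3*, which restrains the kinase PERK, and *DNAJC10*, a disulfide reductase), 3 were positive and 1 negative, with a median of 0.04. The 8 mitochondrial genes divided into 4 and 4, with a median of -0.01. The medians of these 3 sets lay within 0.1 of the value of 0.01 for all tested genes, of which 53.3% were above 0.

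The partners of these chaperones outside the 54 genes were read in the same fit. Of 11 genes of HSP90 and its cochaperones, 1 was positive and 10 negative, from *FKBP4* at -0.21 (SE 0.14) to *CHORDC1* at 0.18 (SE 0.22), with a median of -0.09. The receptor cochaperone *FKBP5*, a known target of glucocorticoids, had -0.03 (SE 0.13). All 7 subunits measured of the cytosolic chaperonin TRiC were negative, between -0.14 and -0.04. HSP70 cochaperones gave 4 positive and 9 negative of 13 genes, regulators of the unfolded protein response 5 and 9 of 14, and heat shock factors with their inhibitor 1 and 3 of 4, in which *HSF1* had -0.09 (SE 0.12) and *HSBP1* 0.32 (SE 0.16, edgeR, unadjusted *p* = 0.0611). The number of these genes with an unadjusted *p* below 0.05 was 0 in every list. Of all tested genes, 53.3% had a log2 fold change above 0. Genes of a list were measured in the same cows and are not independent, so the counts by sign are a description.

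Across cows, the 54 genes did not move as 1 block. Over their 1431 pairs, the median Pearson's *r* of log2 CPM (n = 13 cows) was -0.02. There were 83 pairs with *r* of 0.7 or more and 57 with *r* of -0.7 or less, which is 5.8% and 3.98% of pairs, while among all 60858028 pairs of tested genes 4.41% and 3.93% were that far out. Without replicate 4 of the high group these numbers were 71 and 37, and after the main axis of the other genes was removed they were 36 and 15. All pairs share the same 13 libraries, their depths and their mixture of blood cells, so these values are a description.

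**Figure D3:**
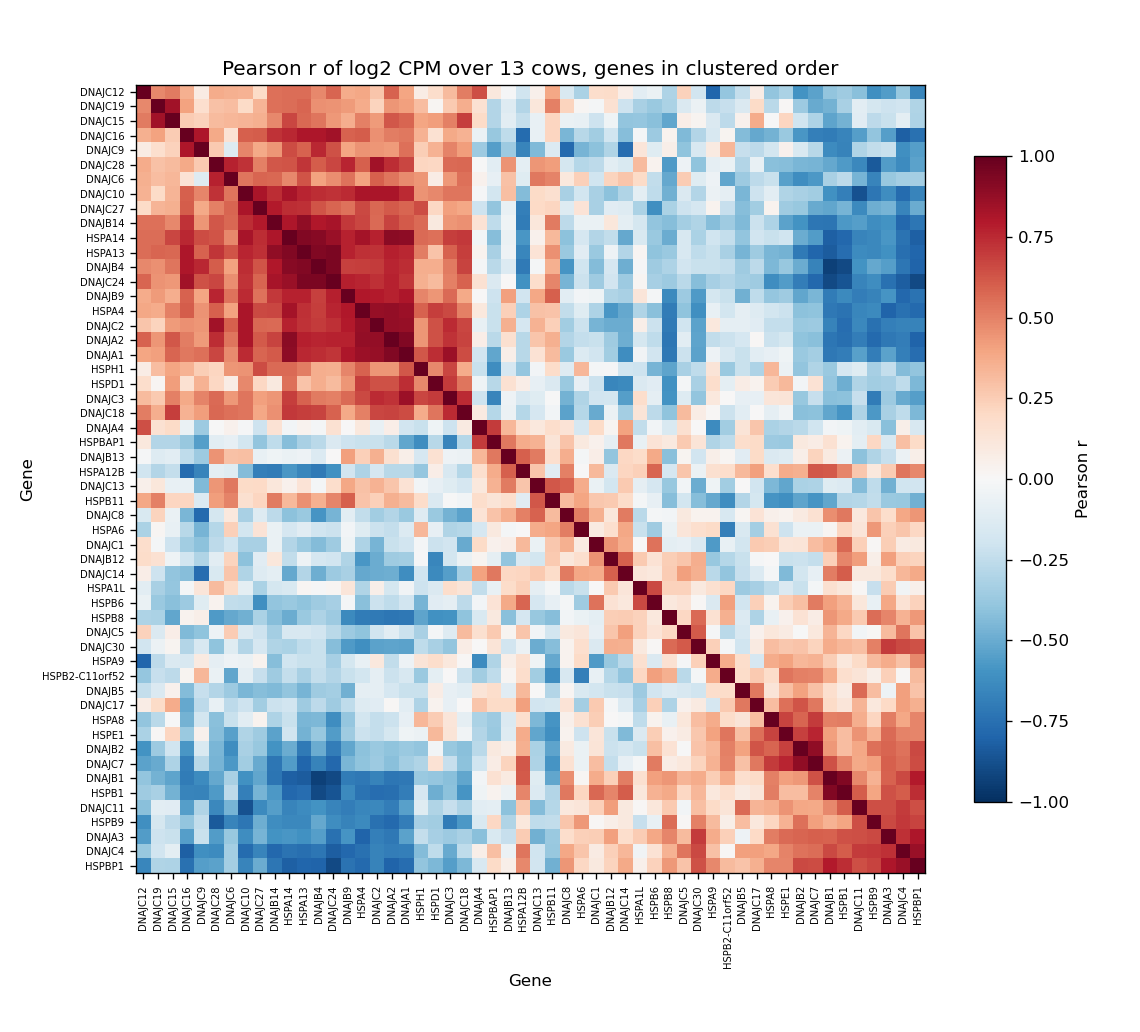
Pearson's *r* of log2 CPM over 13 cows for all pairs of the 54 genes, ordered by average-linkage clustering (red positive, blue negative). A block at the upper left holds *HSPA13*, *HSPA14*, *DNAJB4*, *DNAJC24*, *DNAJA1* and *DNAJA2*, a second at the lower right holds *DNAJB1*, *HSPB1*, *DNAJB2*, *DNAJC7* and *HSPBP1*, and *r* between the blocks reaches -0.93.

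One group of genes rose and fell together from cow to cow, and it crossed family lines. It held *DNAJB4*, *DNAJC24*, which serves the modification of elongation factor 2, *HSPA13* and *HSPA14*, with *r* of 0.94 for *DNAJB4* and *DNAJC24*, 0.93 for *DNAJB4* and *HSPA13* and 0.92 for *HSPA13* and *HSPA14*. Without replicate 4 of the high group these were 0.91, 0.91 and 0.89. Each of these genes also followed the main axis of the other genes, with *r* from 0.82 to 0.95, and 18.7% of all tested genes exceeded 0.7. With that axis removed, *r* of the 3 pairs was 0.83, 0.85 and 0.77, and that of *DNAJC24* and *HSPA13* went from 0.94 to 0.53. The paralogous cytosolic J-proteins *DNAJA1* and *DNAJA2* had an *r* of 0.93, and both also followed *HSPA14* at 0.89 and 0.90. *DNAJC2*, which sits at the ribosome exit tunnel together with the product of *HSPA14*, had an *r* of 0.77 with it and 0.88 with *DNAJA2*.

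A second group held the heat-inducible genes *DNAJB1* and *HSPB1*, with an *r* of 0.92 that was unchanged at 0.92 without replicate 4 of the high group. It ran against the first group, with an *r* of -0.93 for *DNAJB1* and *DNAJB4* and -0.90 for *HSPB1* and *DNAJB4*, although *DNAJB1* and *DNAJB4* are close paralogues. The most abundant gene, *HSPA8*, was nearest by *r* to *DNAJC7* (0.70, and 0.90 without replicate 4 of the high group) and *HSPE1* (0.68). Its *r* with *DNAJA1*, a J-protein that works with it, was -0.08.

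Within the heat-inducible set of 9 genes the 36 pairs had a median *r* of 0.08, with 3 pairs at 0.7 or more and 3 at -0.7 or less. The 6 pairs of the endoplasmic reticulum stress set had a median of 0.67 and ran from 0.53 to 0.77, and the score of this set had an *r* of 0.91 with the main axis of the other genes. The 28 pairs of the mitochondrial set had a median of 0.19, and its highest pair was *DNAJC15* and *DNAJC19* at 0.84. By family, the median *r* was 0.36 within the small heat shock genes, 0.07 within DNAJC, -0.11 within HSP70, -0.15 within DNAJB and -0.31 within DNAJA. The single pairs of HSP110 and of the chaperonin had 0.59 and 0.32.

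**Figure D4:**
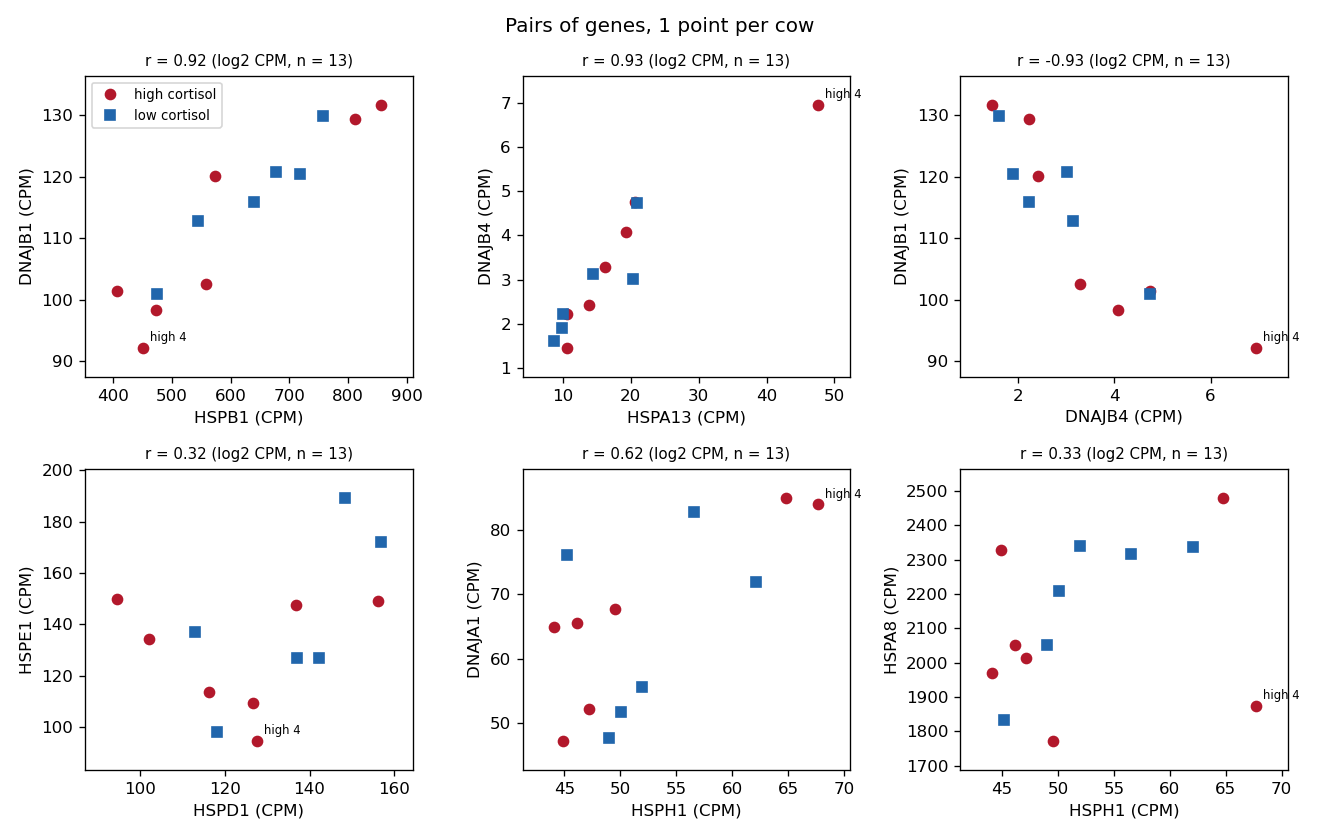
Levels of 6 pairs of genes in CPM, 1 point per cow (red circles high, blue squares low cortisol; replicate 4 of the high group is named where it stands). *HSPB1* and *DNAJB1* rise together (*r* = 0.92 on log2 CPM), as do *HSPA13* and *DNAJB4* (0.93), *DNAJB4* and *DNAJB1* run in opposite directions (-0.93), and the points of *HSPD1* and *HSPE1* (0.32) and of *HSPH1* with *HSPA8* (0.33) scatter widely, *HSPH1* and *DNAJA1* lying between (0.62).

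Pairs known to work together were tested across the 13 cows by a two-sided permutation test with 100000 resamples. Of 12 pairs, 6 had both genes in the tables, and *p* values were adjusted over these 6. The genes *HSPD1* (chr2:86438979-86449372, minus strand) and *HSPE1* (chr2:86449525-86451564, plus strand) stand head to head with 152 bases between them and share a promoter region. Their *r* was 0.32 (rho 0.32, permutation *p* = 0.279, adjusted 0.335), -0.05 within the high and 0.68 within the low group, and 0.68 without replicates 2 and 5 of the high group, the cows farthest from the median of *HSPD1* (adjusted *p* = 0.134 by the permutation test). Once the main axis of the other genes was removed, a setting chosen after seeing the data, it was 0.62 (adjusted permutation *p* = 0.0686).

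*HSPH1* and *DNAJA1* had the highest *r* of the 6, 0.62 (rho 0.59, permutation *p* = 0.0237, adjusted 0.142). It was 0.37 without replicates 1 and 4 of the high group, in which both genes were highest (adjusted permutation *p* = 0.551). The difference between *r* with and without these cows was not tested. Within the high and the low group *r* was 0.82 and 0.34. Once the main axis of the other genes was removed, a setting chosen after seeing the data, it was 0.41 (adjusted permutation *p* = 0.323). *HSPH1* with *HSPA8* had an *r* of 0.33 (rho 0.37, permutation *p* = 0.266, adjusted 0.335), and 0.85 once the main axis of the other genes was removed (adjusted permutation *p* = 0.0018, chosen after seeing the data). Without replicates 1 and 4 of the high group it was 0.54. Replicate 4 of the high group had the highest *HSPH1* (67.7 CPM) and a low *HSPA8* (1873 CPM).

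The other 3 pairs did not pass either. *HSPH1* with *DNAJB1* had an *r* of -0.37 (rho -0.21, permutation *p* = 0.211, adjusted 0.335), which was 0.12 without replicates 1 and 4 of the high group. *HSPH1* with *HSP90AA1*, the inducible HSP90, had 0.33 (rho 0.18, permutation *p* = 0.270, adjusted 0.335), and 0.29 without the same cows. *HSPA9* with *HSPD1* had 0.18 (rho 0.13, permutation *p* = 0.566, adjusted 0.566), and 0.09 without replicates 11 and 12 of the low group. Within the high and the low group, the *r* of *HSPH1* with *DNAJB1* was -0.67 and 0.48. In the same order it was 0.43 and -0.05 for *HSPH1* with *HSP90AA1*, and -0.08 and 0.35 for *HSPA9* with *HSPD1*. Differences of *r* between the groups were not tested. The members most like *HSPH1* by *r* over 13 cows were *DNAJC3* (0.67), *DNAJC27*, a small GTPase with a J domain (0.65), and *DNAJA1* (0.62).

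The main axis of the other tested genes, on which replicate 4 of the high group lies far out, ran through these genes as well. An *r* above 0.7 with it was found for 12 of the 54 genes (22.2%, against 18.7% of all tested genes) and an *r* below -0.7 for 6 (11.1%, against 14.5%). Without replicate 4 of the high group the numbers were 11 and 4, against 13.2% and 8.14% of all tested genes. *HSPA13* (0.95, and 0.89 without that cow) and *DNAJC24* (0.92 and 0.88) lay at one end, with *DNAJB9*, a J-protein that binds misfolded proteins in the endoplasmic reticulum, at 0.80 and 0.90. *DNAJC7* (-0.86 and -0.61), *DNAJB2* (-0.83 and -0.56) and *HSPBP1* (-0.82 and -0.76) lay at the other. The *r* of this axis with log10 library size was -0.32, and it went with the level of the genes. The 12 genes at the first end had a median of 8.88 CPM per kb and the 6 at the other 45.8, as all tested genes at the same ends did with 9.52 and 44.8. The part of library quality or of the mixture of blood cells in this axis was not tested.

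**Figure D5:**
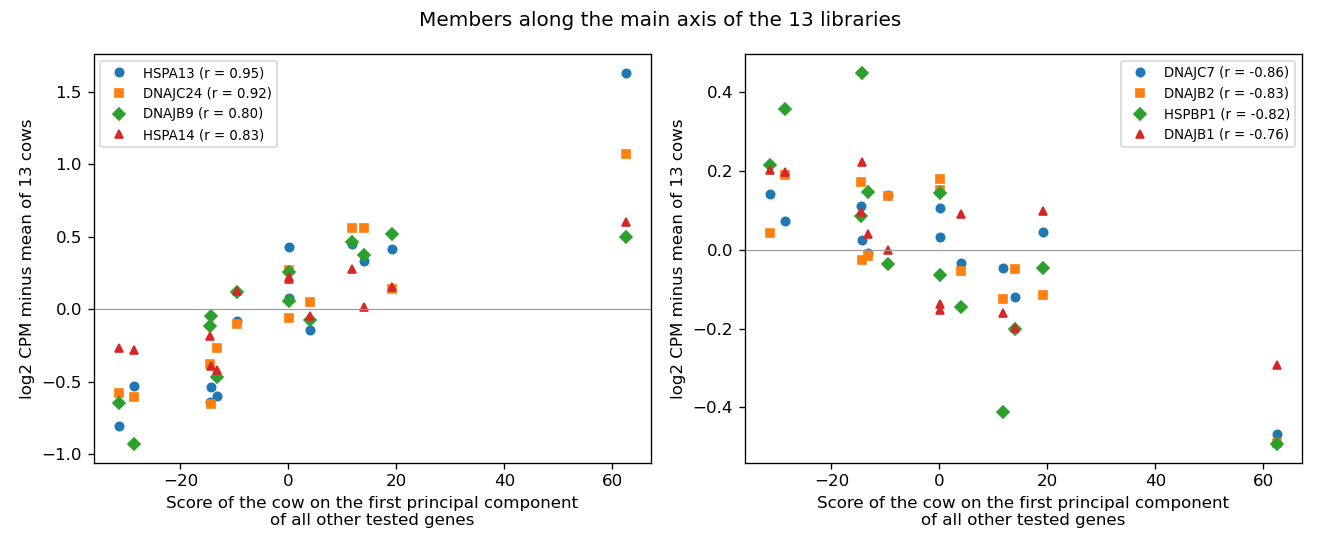
Log2 CPM of 8 genes, minus each gene's mean over 13 cows, against the score of the cow on the first principal component of the other tested genes. On the left *HSPA13*, *DNAJC24*, *DNAJB9* and *HSPA14* rise along the axis, on the right *DNAJC7*, *DNAJB2*, *HSPBP1* and *DNAJB1* fall, and the single cow at 62.5 is replicate 4 of the high group.

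Against the lists of blood cell markers and of interferon response and immediate early genes, *r* of 0.7 or more in size was found for few genes. The neutrophil score had an *r* of -0.76 with *DNAJC17*, and the eosinophil score 0.71 with *DNAJB13*. The interferon response score had -0.77 with *DNAJA2* and -0.76 with *DNAJC15*, and the immediate early score 0.76 with *DNAJC14* and -0.75 with *HSPB2-C11orf52*. With the erythroid score, *r* ran from -0.52 for *DNAJC1* to 0.40 for *DNAJC30*, and 0 genes reached 0.7. The genes named are the extremes over all genes and scores, and the share of all tested genes that far out was not computed. These values are therefore descriptions over the same 13 libraries and not traits of the genes named. Their part in the fold changes was not tested beyond the covariates above.

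On the genome, 5 pairs of these genes lay within 1 Mb of each other. Besides *HSPD1* and *HSPE1*, they were *DNAJC7* and *HSPB9* (86.8 kb apart on chromosome 19, *r* = 0.41), *DNAJC30* and *HSPB1* (773 kb, chromosome 25, 0.33), *DNAJC18* and *HSPA9* (784 kb, chromosome 7, 0.01) and *DNAJB12* and *DNAJC9* (908 kb, chromosome 28, -0.30). None of the neighbours was among the closely moving pairs, which all lay on different chromosomes or farther apart than 1 Mb.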

How the data were processed

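RNA of whole blood was sequenced on an Illumina HiSeq instrument from 13 cows, grouped by the sample labels. The authors deposited raw counts, whole numbers of reads per gene name without normalization. The submitters' processing notes name STAR 2.7.3, featureCounts of Subread 1.6.5 and ARS-UCD1.2, while the table headers name featureCounts 1.4.6-p3 and Ensembl release 88 for UMD3.1. Positions are on UMD3.1, as deposited, and no sequence is shown. Genes without a name share 1 entry, with 13.9% to 16.7% of the counts, which was left out. No 2 libraries were the same.

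Counts were scaled by TMM to CPM, and log2 CPM were taken with a prior count of 2. The groups were compared over all genes passing filterByExpr (minimum count 10, minimum total 15) with edgeR 4.0.16 (robust quasi-likelihood, no covariates) in R 4.3.3, and *p* values were adjusted after Benjamini-Hochberg. The SE of a fold change was its log2 value over the square root of F. The 95% intervals are normal ones from it, somewhat narrower than the F test implies. The edgeR test was chosen over the DESeq2 test that the authors used and was tested on simulated data. DESeq2 1.42.0, limma-voom (limma 3.58.1), RLE and upper-quartile factors, other filters, covariates and fits without 1 cow were the alternatives. Exact permutation tests are two-sided over 1716 splits, with a smallest possible *p* of 0.0012. The score of a list is the mean of log2 CPM centred per gene. Depths of 11045599 to 28124575 counts put 3 counts, the limit of a 0, at 0.107 to 0.272 CPM, counting error only.

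The genes and lists were chosen with earlier results of these data known. The genes named are the 3 most abundant per family, the 3 most and 3 least variable among those with a mean of 100 or more counts, genes with an unadjusted *p* below 0.05 or groups that do not overlap, the genes of the preset pairs, the 3 most like *HSPH1*, and those nearest the total of 100 counts. *DNAJC6*, *DNAJC28*, *DNAJC17*, *DNAJB4*, *DNAJC24*, *DNAJB14*, *HSPA6*, *DNAJC19* and *DNAJC15*, and the genes named only for a level, an *r* or a neighbour, were named after their values were seen, as were the partners named outside the 54 genes. Promoter motifs were not searched.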

Additional observations from a re-analysis of the deposited data

Results flagged for a closer look

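Within each group, the highest and the lowest cow of 37 named genes were compared with the others by Dixon's ratio on the log2 scale. The ratio is the gap to the nearest cow over the whole range. On the CPM scale, in which levels are printed below, high values weigh more and other genes can pass. *HSPA13* in replicate 4 of the high group, at 47.6 CPM, was not beyond the limit on the log2 scale. It was beyond the 95% limit in 6 of 74 groups, where chance passes that limit in about 5% of groups. In replicate 4 of the high group, *DNAJB2* was lowest at 70.3 CPM, *DNAJC7* at 84.3 CPM and *DNAJC17* at 16.8 CPM. In the same group *DNAJC5* was lowest in replicate 6 at 19.4 CPM, and *DNAJC8* was highest in replicate 2 at 149.9 CPM. In the low group *DNAJC8* was highest in replicate 10 at 139.5 CPM. Replicate 4 of the high group, which stands apart on the main axis of the other genes, gave 3 of the 6.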

How the results depend on the processing

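No paired analysis was possible because the high and low cows share no replicate numbers in the labels. The number of the 54 genes past an adjusted *p* of 0.05 was 0 under every alternative run. The number at an unadjusted *p* below 0.05 was 0 under every alternative except the fits that left out 1 cow, where it ran from 0 to 2. Over all 54 genes, the number with a log2 fold change above 0 was 33 in the main fit. It was 31 with DESeq2, RLE factors or the haemoglobin covariate and 36 with upper-quartile factors. Signs by gene were followed only in the 37 named genes, so turns in the other genes are not listed. Among the named genes the sign turned for the genes and alternatives given next, and the cause was not tested. *HSPBAP1* turned to -0.010 with DESeq2, -0.020 with limma-voom, -0.0032 with RLE factors and -0.039 with the haemoglobin covariate. *DNAJC3* turned to 0.022 with limma-voom, 0.0057 with upper-quartile factors, 0.047 with the haemoglobin covariate and 0.020 with the cell scores. *HSPH1* turned to 0.0047 with upper-quartile factors. The haemoglobin covariate also turned *HSPH1* to 0.12, *HSPB1* to 0.13, *HSPA6* to 0.58, *DNAJB4* to -0.020, *DNAJC1* to 0.028 and *DNAJC5* to -0.014. The neutrophil and T cell scores turned *DNAJA1* to -0.00085, *DNAJC27* to -0.12, *HSPA4* to -0.015, *HSPB6* to 0.10 and *HSPBP1* to -0.0031.

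With 1 cow left out in turn, the log2 fold change ran from -0.017 to 0.14 for *DNAJA1*, -0.074 to 0.0084 for *DNAJA3*, -0.054 to 0.051 for *DNAJB2*, -0.093 to 0.064 for *DNAJC3*, -0.014 to 0.043 for *DNAJC5*, -0.0058 to 0.076 for *DNAJC8* and -0.034 to 0.065 for *DNAJC14*. It ran from -0.012 to 0.094 for *HSPA4*, -0.32 to 0.39 for *HSPA6*, -0.071 to 0.014 for *HSPA9*, -0.62 to 0.0091 for *HSPB8*, -0.047 to 0.049 for *HSPBAP1*, -0.039 to 0.11 for *HSPBP1* and -0.083 to 0.039 for *HSPH1*. The *r* of *HSPH1* and *DNAJB1* turned from -0.37 to 0.12 without 2 cows and to 0.072 once the main axis of the other genes was removed. Removal of this axis was an alternative added after seeing the data. With it, *r* rose from 0.33 to 0.85 for *HSPH1* and *HSPA8*, from 0.32 to 0.62 for *HSPD1* and *HSPE1*, and from 0.18 to 0.25 for *HSPA9* and *HSPD1*. It fell from 0.62 to 0.41 for *HSPH1* and *DNAJA1* and from 0.33 to 0.18 for *HSPH1* and *HSP90AA1*.

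Genes with few counts, such as *HSPA6* and *HSPB9*, are limited by depth, and fold changes below about 0.5 on the log2 scale by the number of cows. Groups rest on the labels alone.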
